A study of Mus musculus with 4 samples.

Results

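The miR-26 family was followed in small RNA of medial prefrontal cortex, in control mice and in mice exposed to chronic unpredictable mild stress (CUMS). Its members are the rows for the arms of miR-26a and miR-26b in a table of 1038 known miRNAs. These are 5 rows, mmu-miR-26a-5p, mmu-miR-26b-5p, mmu-miR-26b-3p, mmu-miR-26a-2-3p and mmu-miR-26a-1-3p, and they were taken by name, not by their values. The labels give all mice as C57BL/6, and the study's methods describe juvenile C57BL/6J males. Control mice lived without the stressors. CUMS mice lived for 3 weeks in isolation with stressors such as tilted or damp cages, restraint, noise and a disturbed light cycle, in an order they could not foresee. Only stressed mice that met all of the study's behavioural criteria of a depression-like state were sequenced, so the CUMS group stands for the mice vulnerable to stress. Each group had 2 libraries. The methods describe RNA extraction mouse by mouse, but the labels do not say whether a library holds 1 mouse, so the p-values measure only the spread between these libraries.

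A miRNA is cut from a hairpin, and in this family the hairpins lie in introns of the Ctdsp genes. Each hairpin yields an arm from its 5′ side (5p) and one from its 3′ side (3p). As a rule one of them, the guide, is kept by an Argonaute protein and the other, the passenger, is degraded. The guide finds its target mRNAs mainly through its seed, bases 2 to 8. The Ctdsp genes encode small phosphatases that act on the tail of RNA polymerase II and join the complex of REST, a repressor of neuronal genes outside neurons. In bulk tissue, fewer cells that make a miRNA and less of it per cell cannot be told apart.

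The mature sequences are shown because they set which members can share targets and which can be told apart in the reads. They were read from RefSeq on GRCm38.p6, where 5 of 5 members were found, and are written 5′ to 3′ with the seed in capitals.
mmu-miR-26a-5p: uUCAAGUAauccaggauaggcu
mmu-miR-26b-5p: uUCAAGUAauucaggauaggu
mmu-miR-26b-3p: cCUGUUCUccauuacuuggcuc
mmu-miR-26a-2-3p: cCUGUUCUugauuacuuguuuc
mmu-miR-26a-1-3p: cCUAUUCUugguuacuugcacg

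The guide arms share the seed UCAAGUA. Counted from 1 at the 5′ end, miR-26b-5p differs from miR-26a-5p by C11U and C21U and is 1 nt shorter. The passenger arms fall into 2 seeds. miR-26b-3p and miR-26a-2-3p share CUGUUCU, and miR-26a-1-3p has CUAUUCU, a change of G4A from either of them. Of the 1038 miRNAs in the table, 884 had a RefSeq sequence, and among these no other carried any of the 3 seeds. The longest run of bases shared by the guide arms was 10 nt, and between any passenger arms it was at most 8 nt. The authors counted a read on a mature miRNA only with an overlap of at least 16 nt and no mismatch, so a read can count for 1 of the 5 members only.

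The 3 hairpins are shown because they tell which member comes from which gene. Both mature arms are in capitals.
Mir26b: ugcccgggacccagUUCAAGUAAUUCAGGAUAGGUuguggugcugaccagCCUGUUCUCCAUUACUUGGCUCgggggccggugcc
Mir26a-1: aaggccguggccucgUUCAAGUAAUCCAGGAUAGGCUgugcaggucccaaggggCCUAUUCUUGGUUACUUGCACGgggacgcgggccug
Mir26a-2: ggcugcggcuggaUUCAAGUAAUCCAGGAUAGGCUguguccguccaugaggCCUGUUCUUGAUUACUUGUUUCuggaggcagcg

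Mir26b lies on chr1:74394310-74394394, plus strand, in intron 4 of the 6 introns of the longest Ctdsp1 transcript in GENCODE M21. Mir26a-1 lies on chr9:119031796-119031885, plus strand, in intron 5 of the 7 introns of Ctdspl. Mir26a-2 lies on chr10:126995530-126995613, plus strand, also in intron 5 of 7, here of Ctdsp2. Each hairpin has the same strand as its host gene. The introns were 564, 3283 and 1946 nt long. The Mir26a-2 hairpin also overlaps an exon of another protein-coding Ctdsp2 transcript, by 1 nt. Mir26a-1 and Mir26a-2 give the identical miR-26a-5p, so its reads are the sum of both genes, and only the 3p arms separate them.

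The authors divided the reads of each library by a DESeq size factor and deposited the mean of each group. Reads of single libraries were worked out from these means as whole numbers. Letters a and b stand for the 2 libraries of each group and are not replicate numbers, which cannot be known from means. The libraries held between 9589323 and 10783592 reads on known miRNAs. Control library b stood apart, with 9.32% of its reads on the miR-183 and miR-200 clusters, against 0.0393% to 0.0722% in the other 3 libraries. Values below are normalized reads, that is reads divided by the size factor. Intervals are 95% and exact, and they cover counting error only. The exact permutation tests were two-sided. Their smallest possible p with 2 libraries in each group is 0.333, above a threshold of 0.05.

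The family spanned over 5 orders of magnitude in these cortices, and its order was the same in both group means. miR-26a-5p was the 8th most abundant of the 1038 miRNAs, and took 2.80% and 2.83% of the control reads against 3.09% and 3.06% of the CUMS reads. The 2.83% of control library b is lowered by the reads of that library on the miR-183 and miR-200 clusters. On such shares the log2 fold change in CUMS against control was 0.13, and it was 0.06 with those clusters left out of the totals. miR-26b-5p, which has the same seed as miR-26a-5p, ranked 114th. The passenger arms followed far below, miR-26b-3p at 347th, miR-26a-2-3p at 552nd and miR-26a-1-3p at 697th. Over all 4 libraries, 1214278 reads were counted on miR-26a-5p, 12903 on miR-26b-5p, 231 on miR-26b-3p, 29 on miR-26a-2-3p and 10 on miR-26a-1-3p. The mature miRNAs are 21 or 22 nt long, so no scaling to length was needed. In each library, neighbours in this order were separated beyond their counting intervals from miR-26a-5p down to miR-26a-2-3p. The intervals of miR-26a-2-3p and miR-26a-1-3p overlapped in each of the 4 libraries, and CUMS library a had the reverse order.

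**Figure D1:**
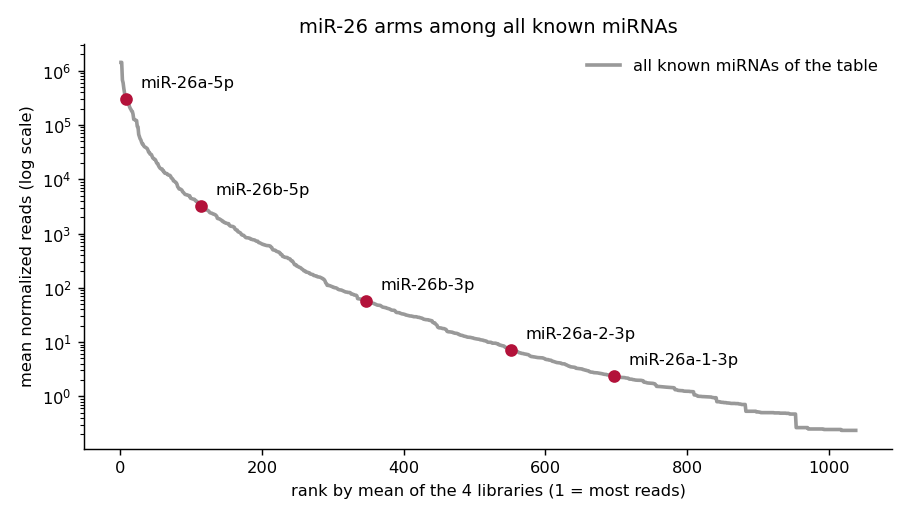
Mean normalized reads over the 4 libraries (log scale) against rank for all 1038 known miRNAs (grey line), with the miR-26 arms as red points. miR-26a-5p is 8th and miR-26b-5p 114th, and the 3p arms are 347th, 552nd and 697th.

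miR-26a-5p, the leading guide of the family, was at nearly the same level in all libraries. Control libraries a and b had 288049 and 304794 normalized reads of it, and CUMS libraries a and b had 302980 and 310538. CUMS library a lay between the control libraries, so the groups overlapped. The group means were 296422 ± 11840 and 306759 ± 5344 (SD, n = 2), a log2 fold change of 0.05 in CUMS against control. The exact permutation test gave p = 0.667. Among the 20 most abundant miRNAs, 3 had a smaller difference between the groups, and the median size of the difference was 0.13 on the log2 scale. The spread of miR-26a-5p within the groups was 0.04 on the log2 scale, and 13 of the 327 miRNAs with at least 50 reads in every library had a smaller one.

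miR-26b-5p, the guide from Ctdsp1, was lower in either CUMS library than in either control library. Normalized reads of 3514 and 3358 in control stood against 2691 and 3277 in CUMS. CUMS library a was the low one, and CUMS library b lay just under control library b. Their counting intervals, 3163 to 3395 and 3245 to 3473, overlapped. The group means were 3436 ± 111 and 2984 ± 414 (SD, n = 2), a ratio of 0.868 and a log2 fold change of -0.20, with an exact permutation p = 0.333, the smallest possible. DESeq2 on the recovered reads gave -0.21 (standard error 0.19, adjusted p = 0.998). The log2 fold change was -0.068 without CUMS library a and -0.35 without CUMS library b. Of 3 oligodendrocyte markers, miR-219a-5p, miR-219a-2-3p and miR-338-3p, 3 were in the table and none was at 0. Their summed share of the miRNA reads was likewise lowest in CUMS library a, followed by CUMS library b. It was 0.0628% and 0.0722% in these, against 0.0765% and 0.0776% in control. As such a share, miR-26b-5p itself took 0.0341% and 0.0311% in control, against 0.0274% and 0.0323% in CUMS. On that scale its groups overlapped, with CUMS library b above control library b. The total of control library b holds its 9.32% on the miR-183 and miR-200 clusters, which lowers its shares of miR-26b-5p and the markers. Scaled to library totals, the log2 fold change of miR-26b-5p was -0.13, and it was -0.20 with those clusters left out of the totals. The part of the markers in the difference was not tested.

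miR-26b-3p, the passenger from the same hairpin, had another order of libraries than its guide. The control libraries held 51 and 53 reads of it against 81 and 46 for CUMS, which are 49.9 and 53.0 normalized reads against 76.3 and 48.7. The groups overlapped, because CUMS library a was the highest and CUMS library b the lowest of the 4. The log2 fold change was 0.28 (exact permutation p = 1), and it was -0.078 without CUMS library a.

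The passenger arms of miR-26a were near the limit of detection. miR-26a-2-3p, from Ctdsp2, was counted 9 and 10 times in control, against 3 and 7 times in CUMS. Either CUMS library was below either control library, with 2.82 and 7.42 normalized reads against 8.80 and 10.0. The interval of CUMS library a reached 8.25 and that of control library a began at 4.03, so their counting intervals overlapped. Its log2 fold change was -0.88 (exact permutation p = 0.333), and it was -0.34 without CUMS library a and -1.73 without CUMS library b. miR-26a-1-3p, from Ctdspl, was counted 2 and 3 times in control, against 5 and 0 times in CUMS. The exact interval of the count of 0 reached 3.91 normalized reads. No difference of miR-26a-1-3p was detectable at this depth.

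**Figure D2:**
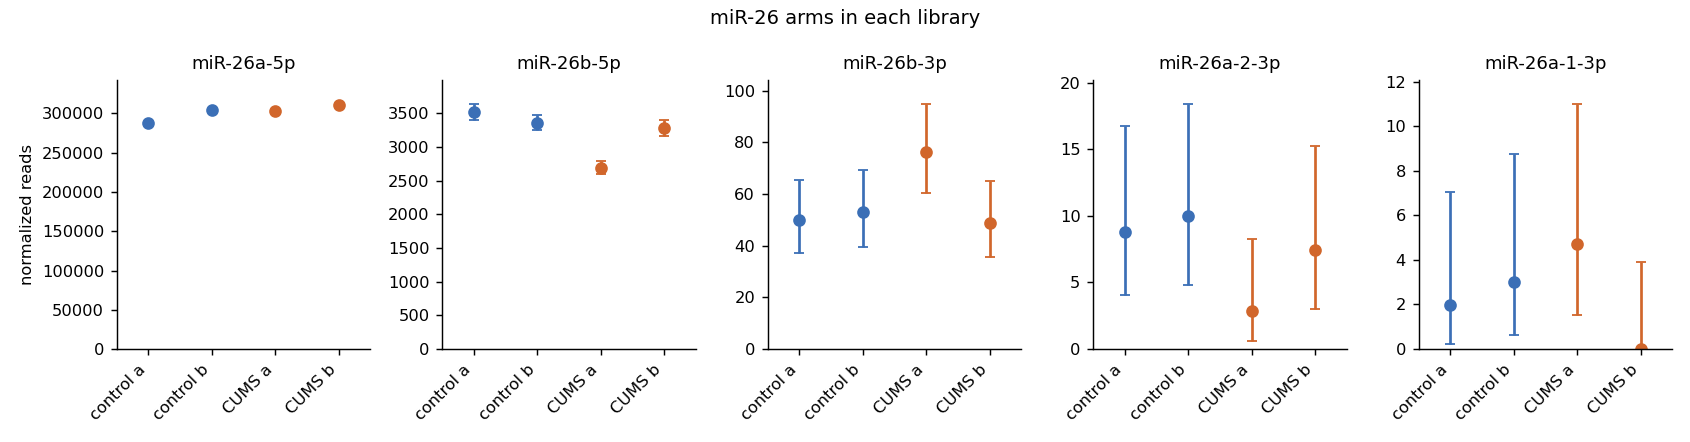
Normalized reads of each miR-26 arm (vertical axes, linear and from 0) in the 4 libraries, with control in blue and CUMS in orange. Bars are 95% exact Poisson intervals. miR-26a-5p is level at 288049 to 310538, and CUMS library a is lowest for miR-26b-5p, at 2691, and highest for miR-26b-3p, at 76.3.

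All 5 members had at least 5 reads in a library, miR-26a-1-3p only through CUMS library a. By the quasi-likelihood test of edgeR, applied to whole reads, the differences called were 0 of them, and 0 of all 719 miRNAs tested (0%), at an adjusted p under 0.05. At an unadjusted p under 0.05 it had 30 of the 719, none of them a member, and DESeq2 had 24 with none at an adjusted p under 0.05. The adjusted p of the members lay between 0.860 for miR-26b-5p and 0.994 for miR-26a-1-3p. Non-overlapping groups with CUMS below control were found for 2 of the 5 members, miR-26b-5p and miR-26a-2-3p, and with CUMS above control for 0. Among the 719 miRNAs, 17.1% were below and 16.7% above in this way. Without control library b, the one that stood apart, the log2 fold changes were 0.09 for miR-26a-5p, -0.24 for miR-26b-5p, 0.33 for miR-26b-3p, -0.78 for miR-26a-2-3p and 0.27 for miR-26a-1-3p.

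**Figure D3:**
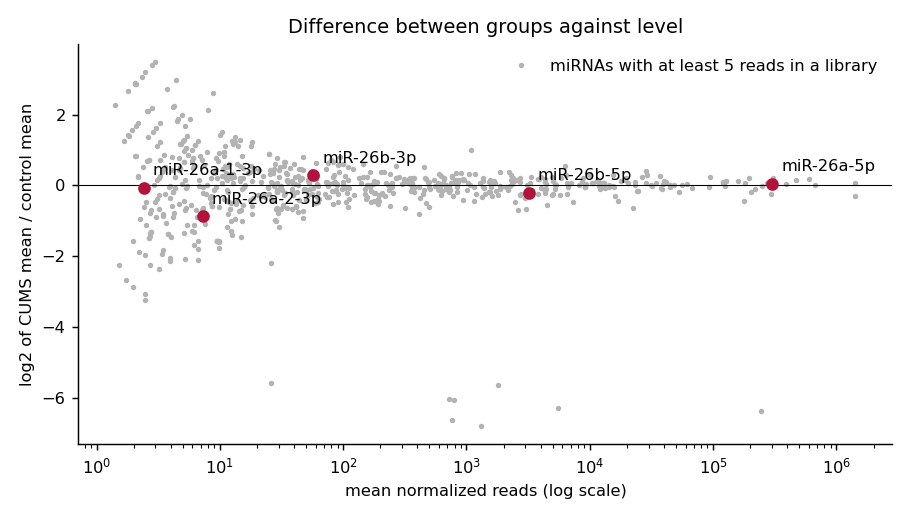
The log2 ratio of the CUMS mean to the control mean against the mean normalized reads (log scale) for 701 miRNAs that reach 5 reads in any library (grey points) and the miR-26 arms (red points). A further 18 miRNAs with a group mean of 0 are not drawn. The members run from -0.88 for miR-26a-2-3p to 0.28 for miR-26b-3p, and the abundant miR-26a-5p is at 0.05.

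The share of the family's guide pool that came from miR-26b was small in every library. For each read of miR-26b-5p the control libraries held 82.0 and 90.8 reads of miR-26a-5p, and the CUMS libraries held 113 and 94.8. Since both are counted in the same library, this ratio does not depend on its depth. The groups did not overlap. The mean ratio was 86.4 ± 6.23 in control and 104 ± 12.6 in CUMS (SD, n = 2), a difference of 0.26 on the log2 scale, and the exact permutation p was 0.333. As a share of both guides, miR-26b-5p took 1.21% (interval 1.17% to 1.25%) and 1.09% (1.05% to 1.13%) in control, against 0.880% (0.849% to 0.913%) and 1.04% (1.01% to 1.08%) in CUMS. The control libraries differed from each other by more than counting error, whereas control library b and CUMS library b did not. Without CUMS library a the difference of the log2 ratio was 0.14, and without control library b it was 0.33.

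The 2 guides were also unlike in how much of their passenger was left. Over all libraries, the 3p arms of miR-26a made up 39 of its reads, 0.00321% (interval 0.00228% to 0.00439%), or 31135 guide reads for each passenger read. For miR-26b the 3p arm made up 1.76% (1.54% to 2.00%), or 55.9 guide reads for each passenger read. The table has 282 names with at least 20 reads and 1 row for each arm, counting miR-26a with its 3p rows summed. Other names whose rows carry hairpin numbers, such as let-7f, are not among them. Among the 282 the minor arm took a median share of 4.19%. In this set the share of miR-26a was the 5th lowest and that of miR-26b the 114th. The 4 lower ones, named after their values were seen, were miR-182, miR-192, miR-143 and miR-101b. With numbered rows summed for every name, a choice made after seeing the data, there were 306 names, and miR-26a was 6th and miR-26b 124th. The lowest was then let-7f, with 21 passenger reads beside 5750860 guide reads. A miRNA with only 1 arm in the table is not in the set. In absolute reads, miR-26b-3p exceeded both miR-26a passengers together in each library, with 51 against 11 and 53 against 13 reads for control, and 81 against 8 and 46 against 7 reads for CUMS.

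**Figure D4:**
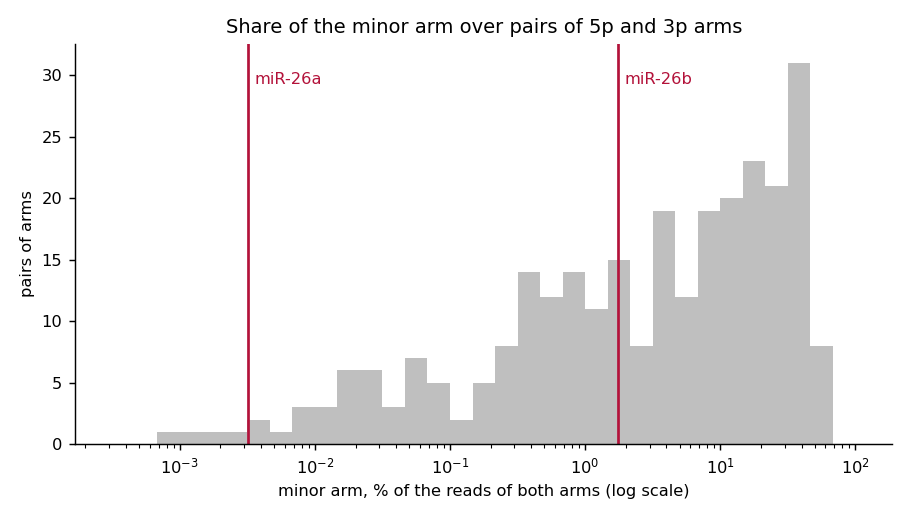
Histogram of the share of the minor arm in the reads of both arms (log scale) over 282 pairs of 5p and 3p arms, all libraries together. Red lines mark miR-26a at 0.00321%, near the low end, and miR-26b at 1.76%, inside the main body.

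Between the group means, the balance of arms differed in opposite directions for the 2 miRNAs. The exact permutation test, with a smallest possible p of 0.333, could not have called either difference. For miR-26a the passenger share was 0.00374% and 0.00426% in control and 0.00249% and 0.00239% in CUMS. Both CUMS libraries were lower, and all 4 counting intervals overlapped, since each share rests on 7 to 13 passenger reads. The ratio of guide to passenger was higher in CUMS by 0.71 on the log2 scale (exact permutation p = 0.333), and 17.4% of the 282 pairs had a higher ratio in both CUMS libraries. For miR-26b the passenger share was 1.40% and 1.55% in control, against 2.76% and 1.47% in CUMS. Library a of CUMS stood above the others beyond counting error, with an interval of 2.19% to 3.41% against an upper bound of 2.03% in control library b. Control values lay on either side of CUMS library b. The log2 ratio of guide to passenger differed by -0.46 between the groups (exact permutation p = 0.667), by 0.01 without CUMS library a and by -0.53 without control library b. The same library was the lowest of the 4 in miR-26b-5p and the highest in miR-26b-3p.

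**Figure D5:**
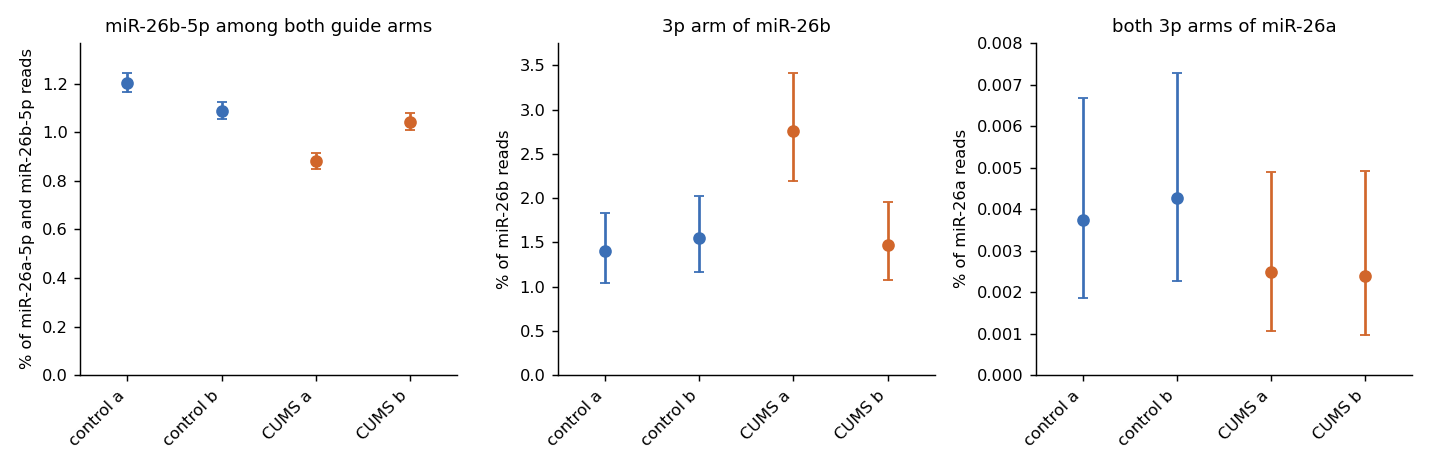
Shares within the family by library, with control in blue and CUMS in orange and 95% exact binomial intervals as bars: miR-26b-5p among both guide arms (left), the 3p arm of miR-26b (middle) and both 3p arms of miR-26a (right), in percent from 0. In CUMS library a the first share is lowest, 0.880%, and the second highest, 2.76%, and the intervals of the third overlap in all libraries.

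The 3p arms were used to set the 2 miR-26a genes side by side. Of the 39 passenger reads of miR-26a, 29 (74.4%, interval 57.9% to 87.0%) carried the sequence from Ctdsp2 and 10 that from Ctdspl. By library the share from Ctdsp2 was 81.8% and 76.9% in control, against 37.5% and 100% in CUMS. CUMS library a, with 3 reads of miR-26a-2-3p and 5 of miR-26a-1-3p, was the only one in which the Ctdspl arm was ahead. The intervals of all 4 libraries overlapped, and the CUMS libraries lay on either side of the control libraries (exact permutation p = 1). These shares describe the passenger arms, and the part of each gene in miR-26a-5p cannot be read from them.

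The miRNAs whose levels over the 4 libraries were most like those of each guide arm were looked up among 326 others with at least 50 reads in every library. The measure was the Euclidean distance between log2 normalized reads, each miRNA centred on its own mean. For miR-26a-5p the closest were miR-191-3p (distance 0.06), miR-181c-5p (0.06) and miR-340-3p (0.07). For miR-26b-5p they were miR-219a-5p (0.04), miR-99b-3p (0.08) and miR-376a-3p (0.13). miR-219a-5p, known from oligodendrocytes, had normalized reads of 194 and 192 in control against 151 and 184 in CUMS, with CUMS library a lowest. It was picked for its likeness to miR-26b-5p and is part of the oligodendrocyte sum above, so this order is no separate observation. With only 4 libraries the distances are descriptions of likeness.

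Because the host phosphatases work with REST, 7 miRNAs tied to REST were set beside the family. These were miR-9-5p, miR-9-3p, miR-124-3p, miR-132-3p, miR-212-3p, miR-29a-3p and miR-29b-3p. The list is not made of independent miRNAs. For example, miR-9-5p and miR-9-3p are arms of the same miRNA. Shared origin among the others was not examined, so the 7 cannot be counted as 7 separate observations. All 7 had a higher mean in CUMS, with log2 fold changes from 0.09 to 0.40 and a median of 0.20, where the median of the 719 miRNAs was 0.02. The edgeR test called 0 of the 7, with the smallest adjusted p at 0.849 and 0 at an unadjusted p under 0.05, and DESeq2 also called 0 of the 7 at an adjusted p under 0.05. At an unadjusted p under 0.05, DESeq2 had 1 of the 7, miR-124-3p, at 0.39 ± 0.18 (standard error) on the log2 scale and an adjusted p of 0.998. For 4 of the 7 the groups did not overlap, with CUMS above control, against 16.7% of all. The list was chosen with earlier results of these data known, so this count and the medians above are descriptions and no test of the list. The largest difference was that of miR-124-3p, the miRNA most typical of neurons, with normalized reads of 25922 and 23143 in control against 29393 and 35217 in CUMS. The summed share of 4 neuronal markers, of which miR-124-3p and miR-9-5p are also in this list, was 8.24% and 6.70% of the miRNA reads in control, against 8.27% and 9.43% in CUMS. The total of control library b includes its 9.32% on the miR-183 and miR-200 clusters, which lowers its share of other miRNAs. The part of the neuronal markers in these values was not tested. miR-26a-5p, with its log2 fold change of 0.05, and miR-26b-5p, with -0.20, were below the lowest of the 7.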

How the data were processed

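Small RNA from medial prefrontal cortex was sequenced in 2 control and 2 CUMS libraries. The authors removed adaptor, low-quality and other noncoding RNA reads, matched the rest to miRBase mouse precursors without mismatch and counted them per mature miRNA. The submitters' processing notes name Bowtie, DESeq and mm10. Versions for the miRNA steps are not given in the sources used here. The signal the authors deposited is, for each group, the average over its libraries of reads divided by a size factor. Its columns carry no group names and were assigned because the paper prints their values under control and CUMS. The authors also deposited a fold (ratio), its log2 value and p-values of their own comparison, which were not used.

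A group mean is the sum of 2 whole read numbers, each times a step of 1/(2 × size factor). With these steps 100% of the 1038 means in each group gave whole reads, within a relative tolerance of 1e-09. Size factors computed anew from the reads as the median of ratios, between 0.944 and 1.06, equalled those in the steps.

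The main difference was the ratio of the deposited means, with two-sided exact permutation tests. As alternatives, edgeR 4.0.16 (quasi-likelihood, TMM, at least 5 reads in a library) and DESeq2 1.42.0 were run in R 4.3.3 on the whole table, with group as the factor and Benjamini-Hochberg adjustment. The recovery of reads, edgeR and DESeq2 were tested on simulated data. Ratios with miR-26a-1-3p alone had 0.5 added to both arms, because it has 0 reads in a library. The ratio with both miR-26a passengers summed had nothing added, and adding 0.5 was an alternative. To count the pairs of arms with a higher ratio in CUMS, 0.5 was added to both arms of every pair. The other computing used Python 3.11.15, numpy 2.4.6, pandas 2.3.3 and scipy 1.17.1, with figures from matplotlib 3.10.9. Other alternatives were scaling to library totals, with and without the miR-183 and miR-200 clusters, no filter, 1 added to the means and leaving out each library. Summing the arms of numbered hairpins for every name was added after seeing the data.

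The members and lists were chosen with earlier results of these data known. The miRNAs named are the members, for each guide arm the 3 most alike, the REST list and others marked as chosen after their values were seen. Markers of oligodendrocytes, neurons, microglia and blood leukocytes, red cells, endothelial and mural cells, choroid plexus, sensory and olfactory epithelium, liver and muscle were summed per library.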

Additional observations from a re-analysis of the deposited data

How the results depend on the processing

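No paired analysis was possible because the recovered libraries carry no replicate numbers. Apart from leaving out libraries, 38 of 39 alternative values moved by less than the spread within the groups. The exception was miR-26a-5p scaled to library totals, with a log2 fold change of 0.13, against 0.06 when the miR-183 and miR-200 clusters were left out of the totals. The value of miR-26a-1-3p, -0.07, changed sign to 0.03 on totals. In ratios with miR-26a-1-3p alone the spread was 1.68 and 2.29 on the log2 scale, so large shifts counted as within it. Computed from group means, the difference for miR-26a-5p over miR-26a-1-3p was 0.12 in place of 0.87. That for miR-26a-1-3p over miR-26a-2-3p was 0.80 in place of 0.13. The edgeR test without a filter called 0 of 1038 miRNAs at an adjusted p under 0.05, with 41 at an unadjusted p under 0.05. With each library left out in turn, 7 of 43 values changed sign. Without CUMS library a, the log2 fold change was -0.068 for miR-26b-5p, -0.078 for miR-26b-3p and -0.34 for miR-26a-2-3p. The range of the log2 fold change was 0.01 to 0.09 for miR-26a-5p, -0.35 to -0.068 for miR-26b-5p, -0.078 to 0.57 for miR-26b-3p, -1.73 to -0.34 for miR-26a-2-3p and -0.35 to 0.93 for miR-26a-1-3p, which has no value without CUMS library a. For the log2 ratios it was 0.14 to 0.38 for miR-26a-5p over miR-26b-5p, 0.62 to 0.81 for guide over passenger of miR-26a, -0.92 to 0.01 for that of miR-26b and -2.15 to 2.41 for miR-26a-1-3p over miR-26a-2-3p. The precision of the miR-26a passengers is limited by their 39 reads.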

Other observations

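The host genes were searched for the complement of the guide seed, because a miRNA of this family can in principle pair with its own host mRNA. The search covered the letters TACTTGA on the sense strand of the longest annotated 3′ UTR of each gene in GENCODE M21 (GRCm38). Ctdsp2, the host of Mir26a-2, had 1 match in 3489 nt, at chr10:126997566-126997572, positions 1080 to 1086 with the first UTR base as 1, within agtgttgctctTACTTGAtttgccaaatg, where the capitals mark the match. Ctdspl, the host of Mir26a-1, had 0 in 3349 nt and Ctdsp1, the host of Mir26b, had 0 in 1701 nt. Of all 21004 genes, 9.67% had at least 1 match, and of the 4520 with a 3′ UTR between 1701 and 3489 nt long, 16.1% had. A match is a description of letters. The mRNAs of the hosts were not analysed here.

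Markers of other cell types and tissues were summed in each library. The 8 markers of sensory and olfactory epithelium summed to 9.32% of the reads in control library b and 0.0393% to 0.0721% in the others, with 2 of the 8 at 0 in a library. Choroid plexus markers summed to 0.124% to 0.204%, red cell markers to 1.07% to 1.33%, endothelial and mural markers to 1.97% to 2.91%, microglia and blood leukocyte markers to 0.0114% to 0.0161%, and the muscle markers found, 2 of 3, to 0.00194% to 0.00323%. The liver marker miR-122-5p was at 0 in both control libraries. Their part in the values of the miR-26 family was not tested.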
